A study of Mus musculus with 12 samples.

Results

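The laminin chains and integrin subunits of the developing mouse lung were taken from the deposited gene counts by their symbols. A gene was a member when its symbol was that of a laminin alpha, beta or gamma chain or began with Itga or Itgb, and *Itgax*, *Itgbl1* and *Itgb1bp1* were left out. The rule found 37 of the 16152 genes counted, of which 11 were laminin chains and 24 integrin subunits. The other 2, *Itgb1bp2* and *Itgb3bp*, carry an integrin name but encode proteins that are not integrins. All 37 passed the filter on low counts (1 CPM or more in 3 or more libraries, CPM being the reads of a gene scaled to the mapped reads of its library), as did 15994 genes in all.

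Laminins are secreted heterotrimers of an alpha, a beta and a gamma chain that polymerize into the basement membrane under epithelia and around vessels and muscle. Integrins are membrane receptors made of an alpha and a beta subunit, which bind laminins, collagens, fibronectin or counter-receptors on other cells and couple them to the cytoskeleton. In the lung they hold the thin epithelium and capillaries to a shared basement membrane, some integrins of the alphav subunit release active TGF-beta from its latent form, and the integrins of leukocytes serve their adhesion and migration.

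RNA of whole lungs of wild-type C57BL/6 mice was sequenced before birth (E15.5 and E18.5) and after it (P5 and P8), with 3 replicates for each time-point, so each value below is a bulk level in untreated mice of both sexes. Replicates of a time-point shared a litter, so litter and time-point cannot be told apart, and neither can fewer cells of a type and less RNA per cell. The counts summed to between 41337443 and 53901957 per library. Several libraries were high in marker genes of thymus, heart or skeletal muscle, and the source of that RNA was not tested. The sum of 9 genes of the thymus was 37.2 CPM in E15.5 replicate 2 and 150.0 and 295 CPM in P8 replicates 1 and 2, against 2.66 to 12.3 CPM in the other 9 libraries. The sum of 7 genes of heart muscle was 1184 and 1485 CPM in E15.5 replicates 1 and 2, against 58.1 to 409 CPM in the others. The sum of 6 genes of skeletal muscle was 163 CPM in P5 replicate 3, 530 and 141 CPM in P8 replicates 1 and 2, and 48.5 CPM in E15.5 replicate 2. The 4 Schwann cell genes summed to 136 and 153 CPM in P8 replicates 1 and 2 and to at most 51.5 CPM elsewhere. The defining genes of the lung (4 genes) were present in every library, at 552 to 711 CPM in sum.

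Most of the members rose at birth, which here means from E18.5 to P5, an interval with no library inside it. Between E18.5 and P5, 13 of the 37 were higher and 2 were lower past both cutoffs (absolute log2 fold change above 1 and Benjamini-Hochberg FDR under 0.05, edgeR), which is 40.5% of the members. Over all 15994 genes, 26.8% were past both cutoffs, 17.5% higher and 9.34% lower. By the FDR alone, 26 members rose and 5 fell, beside 35.4% and 35.7% of all genes. The median log2 fold change of the members was 0.79 and that of all genes was -0.00237.

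Before birth (E15.5 to E18.5) and between the postnatal time-points (P5 to P8), changes past both cutoffs were few. From E15.5 to E18.5, no member was higher and 1, *Itgb1bp2*, was lower, where 3.04% of all genes were past both cutoffs (1.59% higher, 1.46% lower). By the FDR alone 13 rose and 1 fell (all genes 11.6% and 9.87%). That count of rises ran from 6 to 15 with single libraries left out, and was 1 without E15.5 replicates 1 and 2, the libraries high in heart muscle genes. From P5 to P8, *Itgal* and *Itgb4* rose past both cutoffs and no member fell, where 2.96% of all genes did either (2.88% higher, 0.0875% lower). By the FDR alone 6 rose and 2 fell (all genes 9.75% and 8.21%). From E15.5 to P8, 18 rose and 2 fell past both cutoffs (all genes 32.3%, with 20.9% higher and 11.5% lower). That comparison uses libraries of the other comparisons and is no separate evidence. The largest of its 3 successive changes was the one at birth, E18.5 to P5, for 25 of the 37 members (67.6%) and for 70.7% of all genes. It was the one before birth for 10 members (27%) and 15.3% of all genes.

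**Figure D1:**
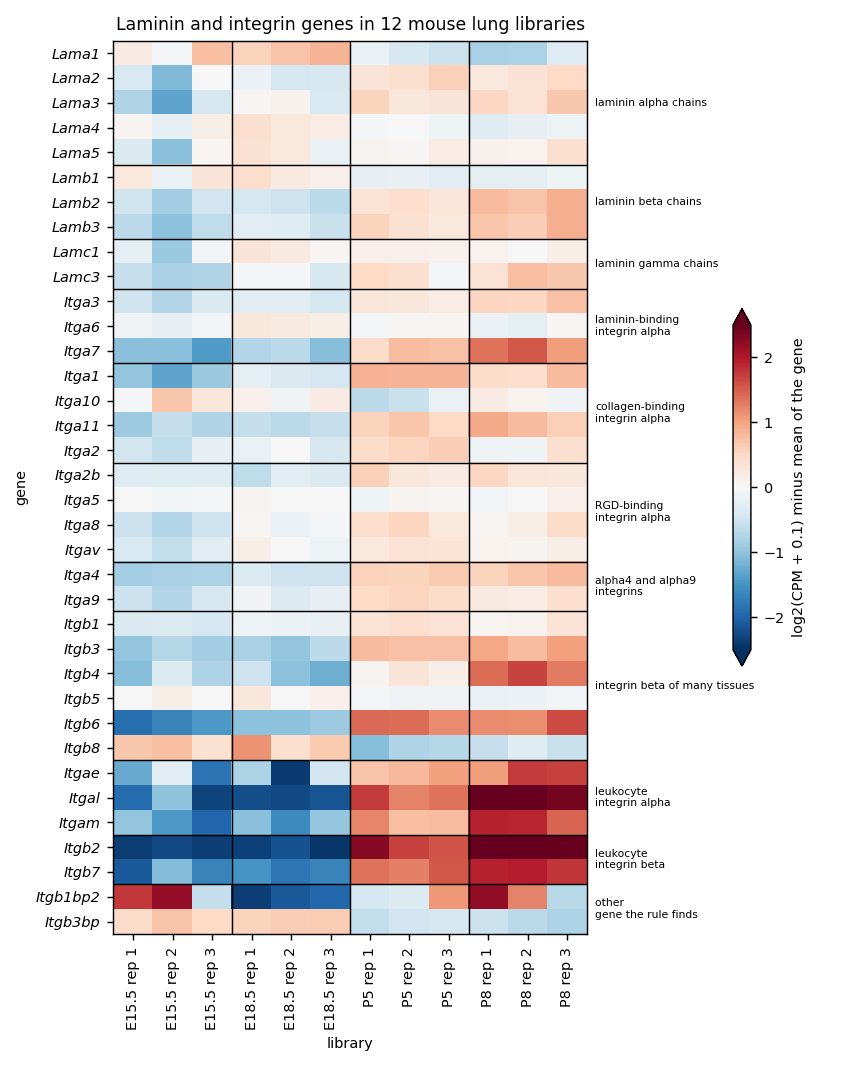
Level of 36 of the 37 members in the 12 libraries, as log2(CPM + 0.1) minus the mean of the gene over the libraries (colour, red higher and blue lower), with rows grouped by role and black lines between groups and time-points. The leukocyte integrins and *Itgb6* are low in the 6 embryonic and high in the 6 postnatal libraries, and E15.5 replicate 2 is the lowest E15.5 library for each of the 10 laminin chains plotted.

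**Figure D2:**
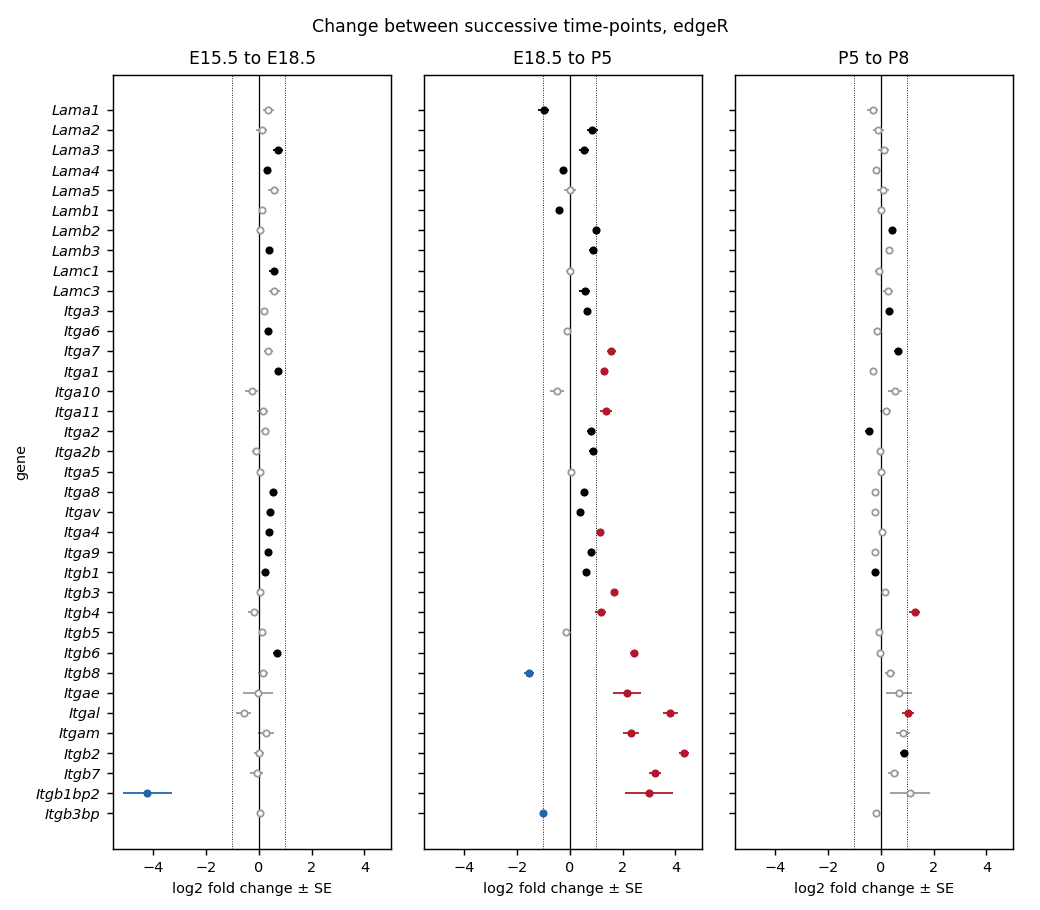
Log2 fold change (edgeR) of 36 of the 37 members between successive time-points, with bars of 1 standard error and dotted lines at the fold change cutoff of 1. Red and blue points are past both cutoffs, black points are past the FDR alone and open grey points are past neither. The 13 red and 2 blue points of the middle panel are the members called between E18.5 and P5.

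Promoter sequences of 23 members were found in RefSeq (GRCm38.p6, 300 bases from 250 before to 50 after the start of the transcript). They are shown for the most abundant subunit and for 2 subunits that rose at birth, because the members ranged widely in their density of CpG, the dinucleotide at which mammalian DNA is methylated. CpG is in capitals in the 60 bases before the start, written 5′ to 3′ on the strand of the gene, which is the plus strand in each.
*Itgb1* (chr8:128685594-128685653): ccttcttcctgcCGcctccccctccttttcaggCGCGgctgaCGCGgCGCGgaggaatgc
*Itga4* (chr2:79255366-79255425): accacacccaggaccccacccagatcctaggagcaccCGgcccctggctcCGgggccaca
*Itgam* (chr7:128062580-128062639): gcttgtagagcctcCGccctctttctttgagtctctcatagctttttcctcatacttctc
The whole windows held 27 CpG for *Itgb1*, 10 for *Itga4* and 6 for *Itgam*, and as many or more were held by 15.4%, 44% and 56.4% of the 27025 promoters in the table, whose median was 7. Among the members the count ran from 1 (*Lama2*) to 27. The 8 members past both cutoffs between E18.5 and P5 had a median of 12 and the other 15 a median of 13, so the count did not separate them.

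Of the laminin alpha chains, *Lama3* and *Lama2* rose at birth, *Lama1* and *Lama4* fell, and *Lama5* was level. *Lama5* encodes the alpha chain found widely in epithelial and vascular basement membranes. It was at 165, 103 and 218 CPM in the 3 replicates at E15.5, 276, 253 and 188 at E18.5, 223, 217 and 242 at P5 and 228, 225 and 278 at P8. The E18.5 and P5 libraries overlapped, and the log2 fold change between them was 0.01 (standard error 0.22, FDR = 0.967). *Lama3*, whose chain joins epithelial cells to their basement membrane, rose in steps, from 44.4 ± 13.2 CPM (SD, n = 3) at E15.5 to 73.5 ± 12.9, 101 ± 10.99 and 110.4 ± 12.1 at the later time-points. Its log2 fold changes were 0.73 before birth (FDR = 0.022) and 0.54 at birth (FDR = 0.0255), and neither passed in every fit that left out 1 library. The earlier one was lost without E15.5 replicate 1 or 2 or E18.5 replicate 1 or 2 (FDR = 0.056 to 0.0812), and the later one without E18.5 replicate 3 (FDR = 0.109) or P5 replicate 1 (FDR = 0.119). Over the whole course it rose by 1.39 (FDR = 3.85e-05). *Lama2*, the alpha chain of muscle and nerve sheaths, was at 21.6 ± 2.48 CPM at E18.5 and 36.8 ± 3.51 at P5 (log2 fold change 0.86, FDR = 0.00209).

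The falling alpha chains were those of early epithelium and of vessels. *Lama1*, the chain of embryonic basement membranes, was at 11.9, 13.2 and 14.6 CPM at E18.5 and at 7.19, 6.03 and 5.51 CPM at P5. All 3 P5 libraries lay below all 3 E18.5 libraries, and the log2 fold change was -0.99 (standard error 0.21, FDR = 0.000925), just short of the fold cutoff. *Lama4*, the alpha chain of endothelial basement membranes, fell by 0.26 on the log2 scale (FDR = 0.0288), from 199.6 ± 16.3 to 157 ± 5.24 CPM. This call was lost in 3 of the fits that left out 1 library, without E18.5 replicate 1 (FDR = 0.127) and without P5 replicate 2 or 3 (FDR = 0.0601 and 0.107). It was also lost with all libraries under another scaling, RLE size factors. The 5 endothelial markers rose together over the same interval, from 894 to 972 CPM in sum at E18.5 to 1935 to 2046 CPM at P5, and their part in the change of *Lama4* was not tested.

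The common embryonic beta chain fell at birth and the other beta chains rose. *Lamb1*, the common beta chain of embryonic laminins, was at 328, 244 and 342 CPM at E15.5, then 367, 320.0 and 299 at E18.5, 237, 240.4 and 227 at P5, and 229, 229.7 and 253 at P8. *Lamb2*, the beta chain of mature basement membranes, was at 79.7, 61.8 and 80.8 CPM at E15.5, then 82.4, 78.4 and 70.3 at E18.5, 143, 149 and 138 at P5 and 194, 185 and 212 at P8. The P5 libraries lay wholly below the E18.5 libraries for *Lamb1* and wholly above them for *Lamb2*. *Lamb1* fell by 0.40 on the log2 scale (standard error 0.12, FDR = 0.00854, and 0.0518 without the 3 libraries high in skeletal muscle genes) and *Lamb2* rose by 0.98 (standard error 0.10, FDR = 2.56e-06). *Lamb2* rose further from P5 to P8, by 0.44 (FDR = 0.0135), a call that was lost without P5 replicate 3 (FDR = 0.074) or P8 replicate 1 (FDR = 0.0556). *Lamb3*, which pairs with *Lama3* in a laminin of epithelial anchorage, rose from 59.3 ± 6.02 to 102 ± 10.2 CPM at birth (log2 fold change 0.87, FDR = 4.67e-05).

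Per kilobase of exon, which allows chains to be compared, *Lamb1* made up 61.7% ± 0.871 of the summed beta chains at E15.5 and 31.6% ± 0.749 at P8, and *Lamb2* 24.6% ± 0.528 and 42.7% ± 0.408 (SD, n = 3). With the length of the longest transcript in place of the union of exons, *Lamb1* stayed above *Lamb2* at P8 (40.0% and 34.1%), so which chain was the more abundant at P8 depends on the length used. The fall of *Lamb1* and rise of *Lamb2* as shares appear with either length. The order of the alpha chains also turned with the length, with *Lama5* at 46.4% and *Lama4* at 25.5% of the alpha chains at P8 by the union of exons, and at 35.96% and 39.4% by the longest transcript.

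*Lamc1*, the gamma chain of most laminins, was the most abundant gamma chain with either length (69.4% and 61.5% of the summed levels per kilobase at P8). It was at 489.9, 304 and 553 CPM at E15.5, then 723, 675 and 596 at E18.5, 633, 633 and 625 at P5 and 611, 573 and 647 at P8. Only the E15.5 libraries lay apart, below all others, and the log2 fold change at birth was 0.01 (FDR = 0.963). *Lamc3* was low throughout, from 2.07 ± 0.183 CPM at E15.5 to 5.31 ± 0.749 at P8. No laminin chain was past both cutoffs in a successive comparison, where 3.04%, 26.8% and 2.96% of all genes were, in order of age. At birth *Lamb2* and *Lama1* lay close to the fold cutoff and crossed it in some alternatives, *Lamb2* with RLE size factors or DESeq2 and without E18.5 replicate 1 or P5 replicate 3, and *Lama1* with library size only, in the fit of E18.5 and P5 alone and without E18.5 replicate 1 or P5 replicate 1. Past both cutoffs over the whole course were 5 of 11, among them *Lama3*, *Lamb2*, *Lamb3* and *Lamc3*, at log2 fold changes of 1.39 to 1.59. Of all genes, 32.3% were past both cutoffs over the whole course (20.9% higher, 11.5% lower).

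**Figure D3:**
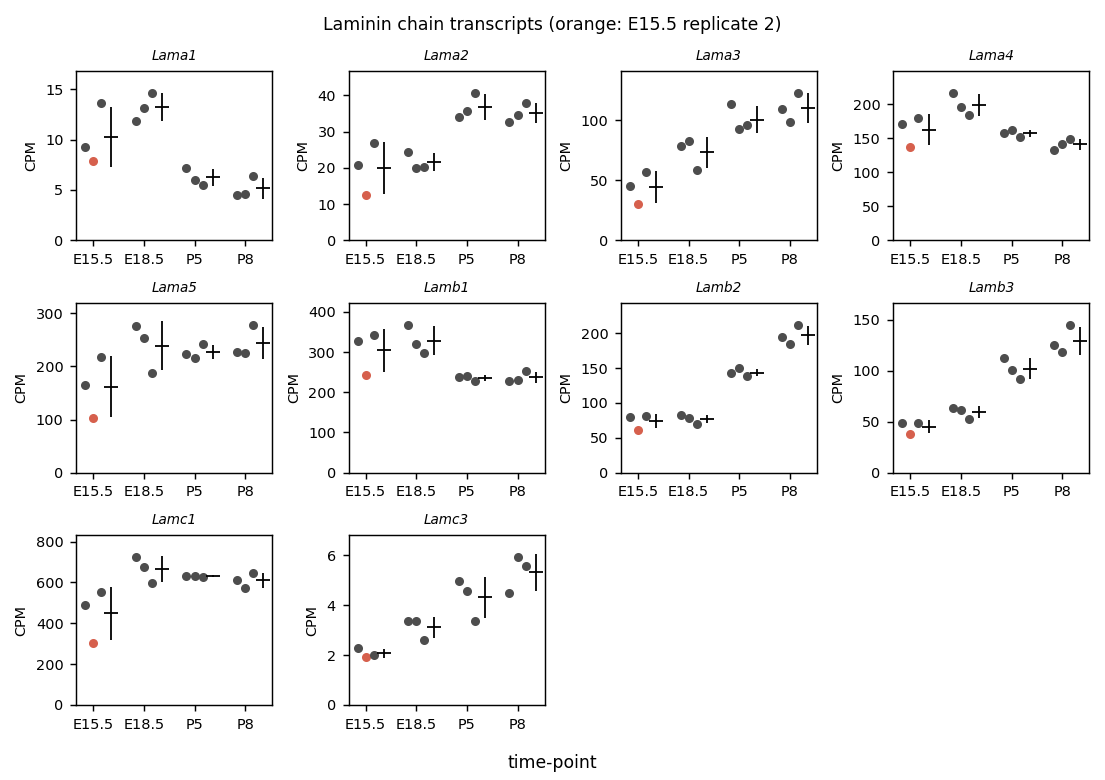
CPM of 10 laminin chains in each library (points) with the mean and SD of the 3 replicates (cross and bar) at each time-point, on axes that start at 0. *Lamb2* and *Lamb3* climb after E18.5 while *Lamb1* and *Lama1* drop, and the orange point, E15.5 replicate 2, is the lowest of its group in all 10 panels.

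How many laminin chains passed the FDR before birth changed with single libraries. From E15.5 to E18.5, 5 chains passed the FDR, among them *Lama3*, *Lama4*, *Lamb3* and *Lamc1*, and no chain fell. Of all genes, 11.6% rose and 9.87% fell by the FDR alone. In the fit of the 2 time-points only, 2 chains passed. Without E15.5 replicates 1 and 2 together, the median log2 fold change of the chains was 0.14. E15.5 replicate 2 was the lowest E15.5 library for 11 of 11 chains. Without it 1 of the 11 chains passed, *Lamc1*, with a log2 fold change of 0.36 (FDR = 0.034) in place of 0.57. It was 3 without P5 replicate 2 or P8 replicate 1, which enter through the shared estimate of the spread. Without E15.5 replicate 1, E18.5 replicate 1 or E18.5 replicate 2, none did, and the median log2 fold change of the 11 chains then lay between 0.36 and 0.41, against 0.40 with all libraries. Without E15.5 replicate 3 or E18.5 replicate 3, 7 of the 11 passed. In E15.5 replicate 2, the 9 chains with a mean of at least 10 CPM differed from the other 2 replicates by a median of -0.457 on the log2 scale. With 10618 genes split into 4 classes of equal size by transcript length, that median was -0.137 in the longest class and 0.0792 in the shortest. The part of transcript length in the levels of these long transcripts was not tested.

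Of the laminin-binding integrins, *Itga3* and *Itga7* rose at birth and *Itga6* did not. *Itga6*, a subunit of epithelial and endothelial cells, was at 185, 172 and 188 CPM at E15.5, then 241, 230.3 and 217 at E18.5, 193, 202 and 203 at P5, and 179, 169 and 202 at P8. It was highest in the 3 E18.5 libraries, which lay above all others. It rose by 0.34 on the log2 scale before birth (FDR = 0.00702). The change was 0.28 to 0.39 over the alternatives, and its FDR did not stay under 0.05 in all of them. The drop at birth was not past the FDR (log2 fold change -0.11, FDR = 0.168). *Itga3*, which pairs with *Itgb1* in epithelium, was at 74.9, 63.9 and 82.1 CPM at E15.5, then 88.6, 88.1 and 78.7 at E18.5, 132, 129 and 120.5 at P5, and 155, 152 and 177 at P8. Its P5 libraries lay above all E18.5 libraries (log2 fold change 0.67, standard error 0.10, FDR = 4.6e-05).

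*Itgb4* (ENSMUSG00000020758, plus strand of chromosome 11, 115974709 to 116008412 in GRCm38), the partner of *Itga6* in the hemidesmosomes of epithelia and in Schwann cells, rose both at birth and after it. In the embryo it was at 3.20, 5.31 and 3.91 CPM (E15.5) and 4.68, 3.27 and 2.86 CPM (E18.5), then at 7.11, 8.53 and 7.46 at P5 and 18.1, 22.2 and 16.8 at P8. The E18.5, P5 and P8 libraries did not overlap. The log2 fold change was 1.18 at birth (standard error 0.21, FDR = 0.000297) and 1.29 from P5 to P8 (standard error 0.21, FDR = 0.00323). Leaving out E15.5 replicate 2 and P8 replicates 1 and 2, which were high in thymus genes, the second was 1.10 (FDR = 0.0462). Leaving out P5 replicate 3 and P8 replicates 1 and 2, which were high in skeletal muscle genes, it was 1.06 and no longer passed (FDR = 0.205). The 4 mesothelial markers rose with it, from 105 to 172.5 CPM in sum at P5 to 442 to 491 CPM at P8. The 4 Schwann cell markers went from 32.0 to 37.7 CPM at P5 to 136, 153 and 51.5 CPM at P8. The 4 airway markers went from 3274 to 3913 CPM to 5072 to 6089 CPM. Most of that sum was *Scgb1a1* (4972 to 6029 CPM at P8), and *Foxj1* was at 59.0 to 80.5 CPM at P8. *Krt5* was at 22.6, 18.4 and 0.444 CPM in P8 replicates 1, 2 and 3, and *Trp63* at 5.13, 4.38 and 0.444 CPM. Of the mesothelial, Schwann cell and airway markers, 4, 3 and 2 genes passed both cutoffs, and their part in the result was not tested.

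*Itga7*, a laminin receptor of skeletal, cardiac and smooth muscle, was at 3.86, 4.04 and 3.04 CPM at E18.5, 8.94, 11.1 and 10.7 at P5 and 16.7, 18.98 and 13.4 at P8, after 3.08, 3.09 and 2.34 at E15.5. The 3 groups from E18.5 on did not overlap. It rose by 1.58 on the log2 scale at birth (standard error 0.17, FDR = 3.16e-06) and by 0.66 from P5 to P8 (FDR = 0.017). P8 replicate 3, where the skeletal muscle genes summed to 7.31 CPM, was the lowest P8 library at 13.4 CPM, and the change to P8 was not past the FDR without P8 replicates 1 and 2 and E15.5 replicate 2 (0.37, FDR = 0.367). It was also lost without P5 replicate 1 or 3 or P8 replicate 1 or 2 (FDR = 0.0558 to 0.0737). The 4 smooth muscle markers ranged over 577 to 703 CPM in sum at E18.5 and 583 to 653 CPM at P5, with 1 called higher. The 7 heart muscle genes went from 58.1 to 96.8 CPM in sum to 128 to 309.7 CPM, with 2 called higher. The 6 skeletal muscle genes went from 4.67 to 5.73 CPM in sum to 6.90 to 163 CPM, with 3 called higher. The part of these muscle genes in the rise of *Itga7* was not tested.

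**Figure D4:**
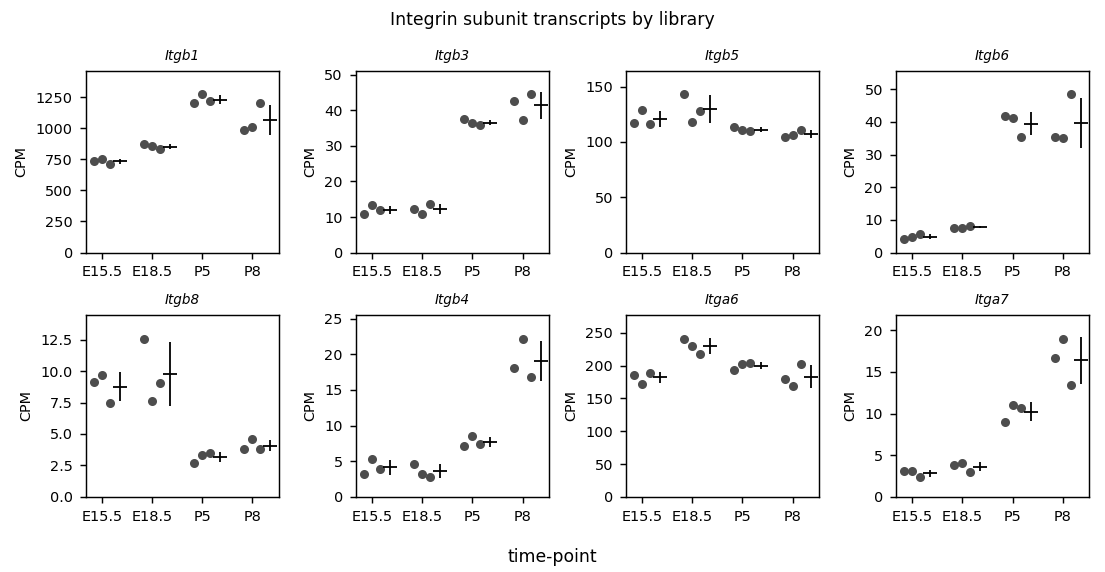
CPM of 8 integrin subunits in each library (points) with the mean and SD of the 3 replicates at each time-point, on axes that start at 0. *Itgb6* rises where *Itgb8* falls, and *Itgb4* and *Itga7* step up at P5 and again at P8. *Itga6* is highest at E18.5, and *Itgb5* stays near its embryonic level.

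Among the collagen-binding subunits, *Itga1* and *Itga11* rose past both cutoffs at birth. *Itga1*, a receptor for basement membrane collagen on mesenchyme and endothelium, was the most abundant of the 4 per kilobase at P5 and P8. It was at 43.7, 34.6 and 45.2 CPM at E15.5, then 73.4, 66.7 and 64.1 at E18.5, 157, 156 and 155 at P5, and 118, 117 and 149 at P8. The groups did not overlap in any successive pair, and the rises were 0.73 before birth (standard error 0.11, FDR = 0.00164) and 1.29 at birth (standard error 0.11, FDR = 4.8e-07). *Itga11*, a receptor for fibrillar collagen on fibroblasts, was at 0.862, 0.804 and 0.879 CPM at E18.5 and 2.04, 2.2297 and 1.94 at P5, and lay between 0.678 and 0.865 at E15.5 and between 2.104 and 2.69 at P8. The E18.5 and P5 libraries did not overlap (log2 fold change 1.37, standard error 0.22, FDR = 0.000105). *Itga2* rose at birth (0.80, FDR = 0.000306), and *Itga10* was at 1.04 to 2.83 CPM with no change past the FDR, but 33.5% of its exon bases are shared with another gene model on its strand, so its level is uncertain.

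Of the alpha subunits that bind fibronectin, tenascin and related ligands, *Itga4* alone passed both cutoffs. It is carried by leukocytes and by embryonic mesenchyme, and was at 25.9, 26.6 and 26.8 CPM at E15.5, then 37.0, 32.6 and 32.6 at E18.5, 70.1, 68.5 and 73.7 at P5, and 68.4, 75.9 and 80.8 at P8. The first 3 groups did not overlap, and it rose by 1.14 at birth (standard error 0.07, FDR = 4.38e-08). *Itga9*, a receptor of tenascin on smooth muscle and lymphatic vessels, was at 121 ± 10.3 CPM before birth (E18.5) and 197 ± 5.36 CPM after it (P5), which is a log2 fold change of 0.79 (FDR = 9.37e-06). *Itga8*, a subunit of mesenchyme, rose before and at birth, by 0.56 (FDR = 0.00439; without E15.5 replicates 1 and 2 the change was 0.47, FDR = 0.108) and 0.55 (FDR = 0.000482). *Itga2b*, the platelet subunit, rose by 0.89 at birth (FDR = 0.000113), while the 5 megakaryocyte and platelet markers went from between 5.81 and 10.2 CPM in sum to between 16.96 and 19.9 CPM. *Itga5*, the fibronectin receptor, was at 109, 104 and 106 CPM at E15.5, then 115, 108 and 110.1 at E18.5, 101, 113 and 110.4 at P5 and 103, 109 and 118 at P8. Its groups overlapped in every successive pair, and its log2 fold change at birth was 0.05 (standard error 0.05, FDR = 0.397).

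*Itgb1*, the beta subunit shared by the laminin-, collagen- and most fibronectin-binding integrins, held 82.5% ± 0.620 of the summed levels per kilobase of the 6 beta subunits of many tissues at E15.5 and 85.05% ± 0.780 at P8 (SD, n = 3). It was at 737, 753 and 710.1 CPM at E15.5, then 872, 856 and 831 at E18.5, 1199, 1272 and 1217 at P5, and 987, 1012 and 1206 at P8. It rose by 0.22 before birth (FDR = 0.0386) and by 0.61 at birth (standard error 0.07, FDR = 6.04e-06), and fell by 0.22 from P5 to P8 (FDR = 0.047). With 1 library left out, the rise before birth passed in 5 of 12 fits (FDR = 0.0514 to 0.121 in the others) and the fall from P5 to P8 in 2 of 12, those without E15.5 replicate 2 or P8 replicate 3 (FDR = 0.0523 to 0.186 in the others). The latter was -0.05 (FDR = 0.755) without the 3 libraries high in thymus genes. *Itgb5*, a partner of *Itgav*, did not pass the FDR in any successive comparison, at 121 ± 7.11, 129.6 ± 12.8, 111 ± 2.03 and 107 ± 3.53 CPM in order of age.

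*Itgb6* and *Itgb8* went in opposite directions at birth. The products of both pair with the alphav subunit and activate latent TGF-beta, *Itgb6* in epithelium and *Itgb8* in epithelium, mesenchyme and other cells. *Itgb6* (ENSMUSG00000026971, minus strand of chromosome 2, 60598292 to 60722643 in GRCm38) was at 4.15, 4.86 and 5.68 CPM at E15.5, then 7.57, 7.62 and 8.26 at E18.5, 41.9, 41.1 and 35.4 at P5, and 35.5, 35.0 and 48.4 at P8. The groups before and after birth did not overlap. It was 5.37-fold higher at P5 than at E18.5 (log2 fold change 2.42, standard error 0.14, FDR = 2.67e-08), after a rise of 0.68 between E15.5 and E18.5 (FDR = 0.00781), and it was level from P5 to P8 (-0.01, FDR = 0.956). Its change at birth lay between 2.34 and 2.51 under every alternative. *Itgb8* (ENSMUSG00000025321, minus strand of chromosome 12, 119158022 to 119238802) was at 9.17, 9.65 and 7.47 CPM at E15.5, then 12.6, 7.60 and 9.08 at E18.5, 2.68, 3.34 and 3.47 at P5 and 3.80, 4.59 and 3.85 at P8. All postnatal libraries lay below all embryonic libraries, and at birth it fell by 1.54 on the log2 scale (standard error 0.19, FDR = 1.28e-05). *Itgav* itself, at 59.4, 50.6 and 63.1 CPM at E15.5, rose to 84.8, 76.2 and 70.5 at E18.5 and 92.9, 99.1 and 97.1 at P5, and was at 82.2, 80.8 and 86.5 at P8. Its groups did not overlap in any successive pair, and it rose by 0.43 before birth (FDR = 0.00657) and 0.41 at birth (FDR = 0.0011). Without E15.5 replicates 1 and 2, the rises before birth of *Itgb6* (0.45, FDR = 0.197) and *Itgav* (0.29, FDR = 0.147) were not past the FDR. *Itgb3*, the partner of *Itgav* on endothelium and of *Itga2b* on platelets, was at 10.9, 13.3 and 11.9 CPM at E15.5, then 12.3, 10.9 and 13.7 at E18.5, 37.4, 36.3 and 35.9 at P5, and 42.6, 37.2 and 44.5 at P8. Its E18.5 and P5 libraries were wholly apart (log2 fold change 1.66, standard error 0.11, FDR = 4.28e-08).

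Markers of the alveolar epithelium moved over the same interval. The 5 markers of AT1 cells, the flat gas-exchange epithelium, summed to 115 to 169 CPM at E18.5 and 1438 to 1564 CPM at P5, and all 5 rose past both cutoffs. The 5 markers of AT2 cells, which make surfactant, summed to 1208 to 2002 CPM and 14600 to 16940 CPM, and all 5 rose past both cutoffs too. The part of these changes in the levels of *Itgb6*, *Lama3* and *Lamb3*, which are expressed in epithelium, was not tested. The 5 proliferation markers fell from between 1471 and 1568 CPM to between 531 and 559 CPM.

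The splicing events that the study lists by gene include 1 of a member, an alternative 3′ splice site of *Itgav*. Other events of the members in the deposited values were not examined. The *Itgav* event is given as percent spliced in (PSI, the percentage of reads that use the site counted as included). The deposited values do not say which of the alternative sites that is, so the sign of a difference cannot be tied to a longer or shorter exon. Its PSI was 60.6, 88.4 and 79.4 at E15.5, 37.0, 52.0 and 49.5 at E18.5, 47.3, 44.9 and 50.2 at P5, and 70.9, 59.8 and 48.7 at P8. The E15.5 libraries lay above the E18.5 and P5 libraries, and P8 overlapped E15.5 and P5. The difference from E15.5 to E18.5 was -30.0 percentage points (exact permutation test, two-sided, p = 0.1, the smallest that 3 against 3 can give; 0.267 adjusted over the 4 comparisons). This test cannot pass 0.05 with 3 libraries a group, so its p says nothing for or against a difference. The event was also chosen on these same samples, so the size of its difference is a description only. The reads behind each PSI were 19 to 107, and the 19 of E15.5 replicate 2 gave a Wilson 95% interval of 68.6 to 97.1, which covers counting error only. Without that library the difference was -23.9 points.

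The 3 largest log2 fold changes of all members at birth were those of leukocyte integrins, *Itgb2*, *Itgal* and *Itgb7*. From E18.5 to P5 each of the 5 rose past both cutoffs, with log2 fold changes of 2.16 to 4.33. Of all genes, 17.5% rose past both cutoffs over that interval. *Itgb2* (ENSMUSG00000000290, plus strand of chromosome 10, 77530252 to 77565708 in GRCm38), the beta subunit shared by leukocyte integrins, was at 2.61, 2.83 and 2.65 CPM at E15.5, then 2.69, 3.01 and 2.51 at E18.5, 67.5, 45.4 and 41.5 at P5 and 100.01, 94.6 and 93.4 at P8. It was 20.1-fold higher at P5 than at E18.5 (log2 fold change 4.33, standard error 0.19, FDR = 2.86e-09) and rose by 0.88 to P8 (FDR = 0.00503; without the 3 libraries high in thymus genes the change was 0.82, FDR = 0.082). *Itgal*, its partner on lymphocytes and other leukocytes, was at 3.94, 7.59 and 2.99 CPM at E15.5, then 3.20, 3.14 and 3.37 at E18.5, 51.8, 36.2 and 39.4 at P5 and 86.5, 96.0 and 81.3 at P8. The embryonic and postnatal libraries were wholly apart for both genes, and E15.5 replicate 2, high in thymus genes, was the highest embryonic library for *Itgal*. *Itgal* rose by 3.81 at birth (standard error 0.28, FDR = 1.23e-07) and by 1.03 from P5 to P8 (FDR = 0.014). The later rise fell short of the cutoffs without P5 replicate 2 (0.90, FDR = 0.0597), P5 replicate 3 (0.94, FDR = 0.0622) or P8 replicate 2 (0.97, FDR = 0.0505), and was 0.90 (FDR = 0.0382) without the 3 libraries high in thymus genes.

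The other leukocyte subunits were lower. *Itgam*, the partner of *Itgb2* on myeloid cells, was at 0.883, 0.574 and 0.934 CPM at E18.5 and 4.62, 3.34 and 3.37 at P5, with 0.413 to 0.920 at E15.5 and 5.49 to 7.63 at P8. In the annotation used here 68.7% of its exon bases are shared with another gene model on the same strand, so its counted level is uncertain. *Itgb7*, a beta subunit of mucosal lymphocytes and mast cells, was at 0.742, 1.61 and 1.04 CPM at E15.5, then 1.21, 0.938 and 1.04 at E18.5, 9.17, 8.55 and 10.5 at P5 and 13.7, 13.97 and 12.4 at P8. *Itgae*, its partner on lymphocytes within epithelium, was at 0.554, 0.115 and 0.714 CPM at E18.5 and 1.75, 1.90 and 2.22 at P5, with 0.216 to 0.826 at E15.5 and 2.24 to 3.71 at P8. For all 3 the postnatal libraries lay above the embryonic ones, with log2 fold changes at birth of 2.34, 3.23 and 2.16 (FDR = 1.89e-05, 1.32e-07 and 0.00314). The 5 general leukocyte markers summed to 132 to 141 CPM at E18.5, 489 to 586 CPM at P5 and 675 to 821 CPM at P8, and all 5 rose past both cutoffs at birth. The 4 neutrophil markers went from 3.15 to 4.06 CPM at E18.5 to 47.5 to 63.9 CPM at P5 and the 4 B cell markers from 1.94 to 2.32 CPM to 45.8 to 57.6 CPM. Their part in the rise of these integrins was not tested.

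**Figure D5:**
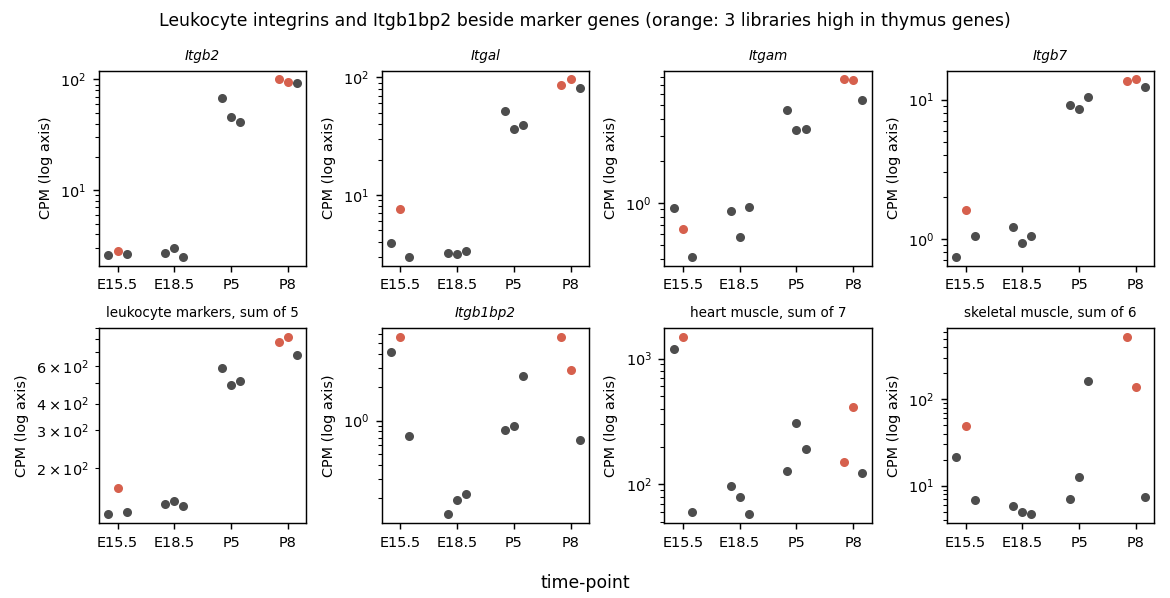
CPM on a log axis of 4 leukocyte integrins, the summed leukocyte markers, *Itgb1bp2* and the summed heart and skeletal muscle markers in each library, with the 3 libraries high in thymus genes in orange. The leukocyte integrins and leukocyte markers separate the embryonic from the postnatal libraries. The libraries high in *Itgb1bp2* are high in heart or skeletal muscle genes. P5 replicate 2 is low in *Itgb1bp2* although its heart muscle sum is above that of P5 replicate 3.

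*Itgb1bp2*, which encodes melusin, a binding partner of the beta1 subunit in heart and skeletal muscle, did not follow the integrins. It was at 4.18, 5.62 and 0.728 CPM at E15.5, then 0.144, 0.191 and 0.220 at E18.5, 0.819, 0.888 and 2.55 at P5, and 5.68, 2.86 and 0.674 at P8. Its high libraries were E15.5 replicates 1 and 2, P5 replicate 3 and P8 replicates 1 and 2, which were those named above as high in heart or skeletal muscle genes. At P5 the heart muscle genes were highest in replicate 2 (309.7 CPM in sum, 191.9 in replicate 3), where *Itgb1bp2* was at 0.888 CPM. Before birth it fell past both cutoffs (log2 fold change -4.21, standard error 0.92, FDR = 0.00836), and at birth it was 8.01-fold higher, also past both cutoffs (FDR = 0.0102). It is 1 of the 13 members counted as higher at birth, of which the other 12 are integrin subunits. Without E15.5 replicates 1 and 2 the first was -1.96 and not past the FDR (FDR = 0.295). *Itgb3bp*, which encodes a centromere protein, fell at birth with the proliferation markers, from 13.7, 14.1 and 14.5 CPM at E18.5 to 5.99, 6.57 and 6.97 at P5 (log2 fold change -1.03, standard error 0.11, FDR = 3.67e-06). At E15.5 it was at 12.7, 15.2 and 13.1 CPM and at P8 at 6.34, 5.78 and 5.39, so the embryonic and postnatal libraries were wholly apart. It shares 398 exon bases with *Pgm1* on the opposite strand, and the strand setting of the counting is not given.

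Genes that work with laminins and integrins were read from a list of 54, of which 52 were tested. At birth 20 rose and 3 fell past both cutoffs, which is 44.2% of those tested, where 26.8% of all genes passed (17.5% higher, 9.34% lower). From E15.5 to E18.5, where 3.04% of all genes were called, edgeR called none of them (20 by the FDR alone, and DESeq2 called 1, *Spp1*, as lower), and from P5 to P8, where 2.96% of all genes were called, it called 3 (*Fermt1*, *Smoc1* and *Smoc2*, each higher). *Smoc2* was not called without P5 replicate 1 or 3 or P8 replicate 1 or 2, and all 3 calls were lost without E15.5 replicate 2 and P8 replicates 1 and 2. Of the 23 cytoplasmic linkers and kinases tested, 7 rose and 1 fell at birth, of the 18 other genes of basement membranes 5 rose and 2 fell, and of the 11 other integrin ligands 8 rose and none fell, with 1 of the other 3 lower by the FDR alone (*Vcam1*). Among partners with a mean of at least 10 CPM over the 12 libraries, the largest rise was that of *Spp1*, encoding osteopontin, which was at 1.38, 0.727 and 1.67 CPM at E18.5 and 20.6, 8.63 and 7.12 at P5 (log2 fold change 3.37, FDR = 0.000164). *Vtn*, encoding vitronectin, rose by more but was lower, from between 0.0957 and 0.293 CPM to between 4.14 and 5.05 CPM (4.63, FDR = 6.36e-07). *Lims2* (3.14, FDR = 4.68e-07), an adaptor of focal adhesions, *Parvg* (2.45, FDR = 6.23e-05), a parvin of leukocytes, *Ptk2b* (2.231, FDR = 4.58e-06), a focal adhesion kinase, and *Ntn4* (2.16, FDR = 5.88e-09), a netrin that binds laminin gamma chains, followed. The falls were *Smoc2* (-3.09, FDR = 4.25e-08), a matricellular protein, and *Frem2* (-2.38, FDR = 1.2e-06), a basement membrane protein of embryonic epithelia, besides *Fermt1* (-2.18, FDR = 9.38e-05), an epithelial kindlin that was at 0.851 to 1.61 CPM at P5. *Npnt*, encoding the ligand of the integrin of *Itga8*, rose by 1.96 (FDR = 3.8e-08). *Ilk*, the integrin-linked kinase that cells widely express, was counted at only 0.113 to 0.756 CPM and was not tested. The mode of counting is not given, so that level is uncertain.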

How the data were processed

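The authors extracted RNA from whole lungs, sequenced it, aligned the reads to mm10 with TopHat2 2.1.1 and Bowtie2 2.3.4, and counted reads per Gencode gene with HTSeq-count 0.10.0. The deposited counts are raw and hold the genes the authors kept after a filter on low counts. The deposited CPM values are scaled to the mapped reads of each library, and the deposited PSI values are percent from VAST-TOOLS. Symbols came from the gene identifiers, and exon lengths from Gencode M21 (GRCm38, the assembly of mm10), which is later than the release used by the authors.

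Counts were fitted with edgeR 4.0.16 (quasi-likelihood test, TMM normalization, R 4.3.3) in 1 model of the 12 libraries. The 15994 genes that reached 1 CPM in 3 libraries or more were tested, and the Benjamini-Hochberg FDR covers all of them. The script was tested on simulated data. The members and gene lists were chosen with earlier results of these data known. Libraries were described individually for members past both cutoffs in a successive comparison and for the most abundant of their group per kilobase. *Lama1* and *Itgav*, which meet neither rule, were also described by library. Partner genes were named, at most 5 in each direction, by fold change at birth among those called with a mean of at least 10 CPM. *Npnt*, *Ilk*, *Vcam1*, *Vtn*, *Smoc1* and *Fermt1* were added after their values were seen. DESeq2 1.42.0, other scalings, no filter, a replicate block, the 2 time-points alone and leaving out libraries were tried. Replicate libraries differed by more than counting noise, so each was counted as 1 sample. The values of 1 member are not reported here.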

Additional observations from a re-analysis of the deposited data

How the results depend on the processing

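Over 21 alternatives, no member change past the FDR changed sign, and 53 of the 85 kept their side of the threshold under all of them. The counts of members past both cutoffs with each library left out in turn were 1 from E15.5 to E18.5, 15 to 17 from E18.5 to P5, 1 to 3 from P5 to P8 and 20 to 21 from E15.5 to P8, and those of partner genes 0 to 2, 22 to 23, 2 to 4 and 24 to 25. By the FDR alone the members numbered 14, 31, 8 and 32 and the partner genes 20, 44, 13 and 45, by construction. Same-numbered libraries did not pair (correlation of deviations from the time-point means -0.343 to 0.301 over 18 pairs). The replicate block left the member counts at 1, 15, 2 and 20, and of the partner genes it added 1 from E15.5 to E18.5, *Spp1*. DESeq2 also called that 1, and the fit of the 2 time-points only called 2. *Itgb8* from E15.5 to P8 missed the fold cutoff with DESeq2 or RLE size factors (-0.99). Chosen after seeing the data, leaving out libraries high in thymus genes gave 1 member from P5 to P8 and 0 partner genes there, with 1 partner gene from E15.5 to E18.5. Leaving out those high in skeletal muscle genes gave 0, 0 and 1 for the same counts, and those high in heart muscle genes 0 members from E15.5 to E18.5. These fits leave a time-point with 1 library, which is taken to vary like the others. The cause of these differences was not tested. The share of *Lama5* at P8 went from 46.4% to 35.96%, of *Lamb2* from 42.7% to 34.1% and of *Lamc1* from 69.4% to 61.5% with the length of the longest transcript. The *Itgav* difference was -23.9 points from pooled reads and -23.9 with at least 20 reads, and -37.8 to -23.9 with single libraries left out. With 3 libraries a group, small changes of long transcripts at E15.5 and levels under 1 CPM are the least certain.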

Other observations

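Among genes found only in the larger table of 51825 genes with CPM, 2 more symbols matched the rule, *Itgad* and *Itgb2l*, which encode leukocyte integrin subunits. *Itgad* was at most 0.343 CPM in any library. *Itgb2l* was at 0.258, 0.177 and 0.0787 CPM at E15.5, was listed at 0 in 2 of the 3 E18.5 libraries and at 0.134 CPM in the other, and was at 0.578, 0.764 and 0.707 CPM at P5 and 1.48, 0.768 and 0.838 at P8. Each postnatal library lay above each embryonic one, and the gene was not tested.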
